A study of Mus musculus with 12 samples.

Results

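The 34 genes described here code for enzymes and regulators of sterol and fatty acid synthesis: 13 enzymes of the mevalonate and sterol pathway, 5 regulators of both branches, 13 enzymes that make, desaturate or elongate fatty acids, and 3 enzymes of glycerolipid synthesis. They were chosen by name, and probes were matched by accession or, failing that, by gene symbol or synonym. All 34 were found among the 30139 genes or transcripts on the array, and all were well above background on each of the 12 arrays and among the 20082 genes tested. Their values come from colorectal tissue of female C57BL/6N mice aged 14 weeks, measured on 1-colour arrays, 4 per group. The groups were polyps of Apc+/Δ716 mice, normal colorectal tissue of the same Apc+/Δ716 mice (mice 103, 106, 107 and 110), and normal colorectal tissue of wild-type mice (mice 102, 104, 105 and 108). Mutant mice carry 1 truncated copy of Apc, an inhibitor of Wnt signalling, in every cell, and all groups received the same chow. Each array stands for 1 tissue sample of 1 mouse, and whether several polyps of a mouse were combined was not stated in the labels. Epithelial markers of colorectal identity were all measured above background in every group, with summed log2 levels of 9.0 to 9.27 in polyps, 9.70 to 9.84 in Apc normal tissue and 9.69 to 9.93 in wild-type tissue.

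Cells make cholesterol from acetyl-CoA through mevalonate, farnesyl diphosphate, squalene and lanosterol, and make fatty acids from acetyl-CoA through malonyl-CoA. The SREBP transcription factors switch on both branches: SREBP-2, from Srebf2, acts mainly on the sterol genes and SREBP-1, from Srebf1, mainly on the fatty acid genes. Scap carries the SREBPs from the endoplasmic reticulum to be cut into their active form, and the Insig proteins hold Scap back when sterols are plentiful. In the gut, sterols and fatty acids come from the diet, from the blood and from synthesis in the epithelium itself.

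Promoter sequences show what part of the sterol branch has in common outside the measured levels. RefSeq promoters (assembly GRCm38.p6, 250 bases before to 50 after a listed start) were found for 26 of the 34 genes, in 37 windows. Fdps, Fdft1, Sqle, Scd1, Scd2, Fads1, Dgat1 and Dgat2 had no entry. CCAAT, the core of the site of the factor NF-Y, a known partner of SREBPs, was present on either strand in 22 of the 37 windows (59.5%), against 37.4% of all 32851 promoter windows. All 10 sterol enzymes with an entry held it in at least 1 of their windows (10 of 13 windows, 76.9%). The sterol regulatory element, searched as TCACNCCAC on both strands, was present in 1 window (2.70%), that of Hmgcs1, against 1.24% of all windows. The E-box CACGTG, which is its own reverse complement, was present in 6 windows (16.2%), against 7.15% of all. These 3 motifs do not overlap one another in the windows printed here. Matches describe letters and are not shown to be bound, and a window without a match says nothing of the factor.

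In polyps against Apc normal tissue, Hmgcs1, Lss, Insig1 and Acacb were lower and Srebf2 was higher. The windows of these 5 genes, which recur below, are shown. Each is given 5′ to 3′ on its own strand as the 250 bases before the start, and capitals mark the 3 motifs. The regions are chr13:119690101-119690350 (Hmgcs1), chr10:76531355-76531604 (Lss), chr5:28071162-28071411 (Insig1), chr15:82147019-82147268 (Srebf2) and chr5:114165268-114165517 (Acacb), all on the plus strand of GRCm38.p6.
Hmgcs1: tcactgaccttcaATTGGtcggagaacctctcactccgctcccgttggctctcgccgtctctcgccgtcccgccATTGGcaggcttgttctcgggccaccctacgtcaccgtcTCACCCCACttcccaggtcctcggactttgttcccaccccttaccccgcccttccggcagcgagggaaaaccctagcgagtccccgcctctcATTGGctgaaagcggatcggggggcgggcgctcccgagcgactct
Lss: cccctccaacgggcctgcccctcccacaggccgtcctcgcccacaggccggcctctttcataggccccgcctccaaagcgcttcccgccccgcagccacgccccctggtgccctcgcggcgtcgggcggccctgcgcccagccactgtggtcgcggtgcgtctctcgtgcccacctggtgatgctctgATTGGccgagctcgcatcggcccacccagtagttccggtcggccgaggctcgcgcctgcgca
Insig1: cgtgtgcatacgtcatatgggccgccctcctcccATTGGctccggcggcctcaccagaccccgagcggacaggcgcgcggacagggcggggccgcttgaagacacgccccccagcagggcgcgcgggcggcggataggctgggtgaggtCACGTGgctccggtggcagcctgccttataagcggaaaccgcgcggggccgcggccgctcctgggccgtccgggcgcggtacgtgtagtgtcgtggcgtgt
Srebf2: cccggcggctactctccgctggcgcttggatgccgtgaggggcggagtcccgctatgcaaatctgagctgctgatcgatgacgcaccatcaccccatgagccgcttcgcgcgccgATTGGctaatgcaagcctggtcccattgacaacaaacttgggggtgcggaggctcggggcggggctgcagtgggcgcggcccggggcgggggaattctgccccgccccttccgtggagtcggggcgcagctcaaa
Acacb: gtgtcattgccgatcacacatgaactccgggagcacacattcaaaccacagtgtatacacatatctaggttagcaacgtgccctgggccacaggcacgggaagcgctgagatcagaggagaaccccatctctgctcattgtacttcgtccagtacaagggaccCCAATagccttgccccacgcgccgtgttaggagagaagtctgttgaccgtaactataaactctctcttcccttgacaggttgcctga
In Hmgcs1 the sterol regulatory element began 137 bases before the start, between CCAAT motifs that began 237, 176 and 45 bases before it. Lss, Srebf2 and Acacb held a single CCAAT motif each, which began 62, 135 and 87 bases before the start. Insig1 held CCAAT at 216 bases and the E-box at 101 bases.

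Polyps were first compared, as a group and without pairing by mouse, with the normal tissue of the mice that bore them. Of the 34 genes, 3 were called higher and 14 lower in polyps, 17 in all. Over all genes tested 45.5% passed, 20.5% higher and 24.9% lower (limma, Benjamini-Hochberg adjusted p under 0.05), so the share of the 34 genes called was near that of the whole array. The sterol branch had 0 genes higher and 7 of 13 lower, the fatty acid branch 2 higher and 4 lower of 13. Median log2 fold changes were −0.33 for sterol enzymes, −0.30 for fatty acid enzymes and −0.34 for all 34 genes, beside −0.06 for all genes tested. Without the Apc normal sample of mouse 107 the fatty acid median was 0.06. The medians also depended on the scaling. After quantile normalization they were −0.31 for sterol enzymes, −0.09 for fatty acid enzymes and −0.17 for all 34 genes, beside 0.02 for all genes tested. The spread between samples sets the test, and the number of arrays limits its precision. Within the slide that held mice 103 and 106 alone, and within that of mice 107 and 110 alone, 2 genes passed on each, from 2 arrays per tissue.

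**Figure D1:**
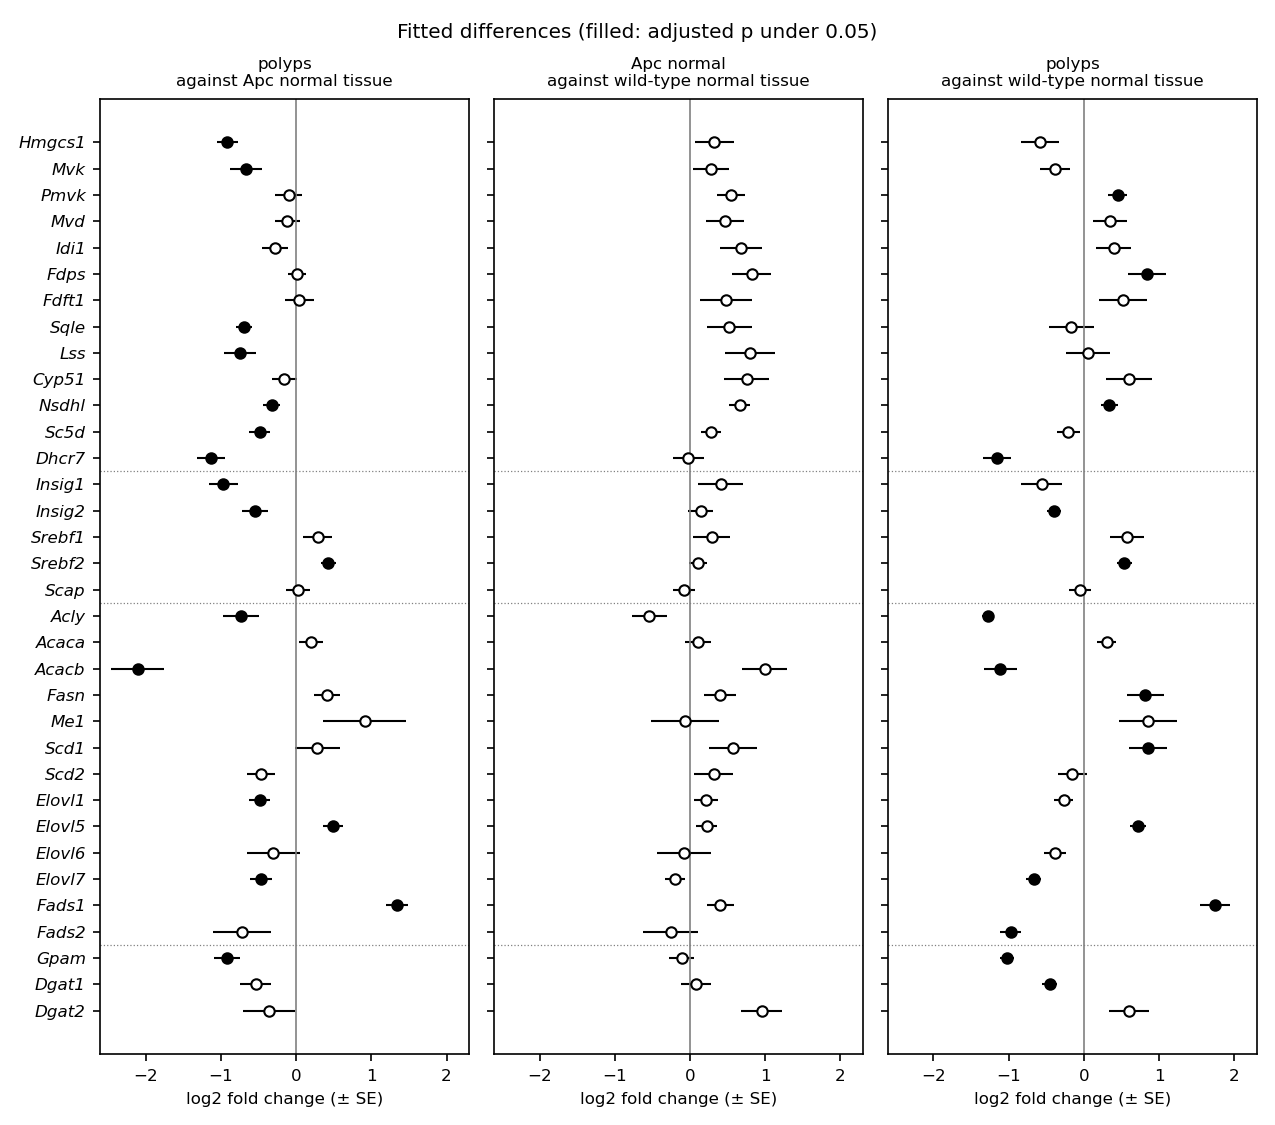
Fitted log2 fold changes of the 34 genes with their SE (bars), in 3 panels from left to right: polyps against Apc normal tissue, Apc normal against wild-type tissue and polyps against wild-type tissue, with 4 arrays per group. Filled points passed the limma test at an adjusted p under 0.05: 17 genes on the left, 0 in the middle and 16 on the right. Dotted lines part the sterol enzymes, regulators, fatty acid enzymes and glycerolipid enzymes.

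Markers of several cell types differed on the same arrays. Summed absorptive colonocyte markers stood at 6.38 to 7.39 on the log2 scale in polyps, 9.23 to 10.2 in Apc normal tissue and 9.65 to 10.0 in wild-type tissue, and 9 of 10 fell in polyps against Apc normal tissue. Smooth muscle markers stood at 5.22 to 6.20 in polyps, 8.58 to 9.02 in Apc normal and 9.11 to 9.57 in wild-type tissue, with 10 of 10 lower. Adipocytes are rich in fatty acid synthesis enzymes. Their summed markers stood at 0.11 to 1.46 in polyps, 1.14 to 4.36 in Apc normal and 1.64 to 3.82 in wild-type tissue, 3 of the 8 tested were lower in polyps, and Lep was not above background on any array. The Apc normal array of mouse 107 had the highest adipocyte level. Proliferation markers were higher in polyps, 9 of 9 tested, with summed levels of 5.62 to 5.84 in polyps, 4.31 to 4.51 in Apc normal tissue and 4.17 to 4.74 in wild-type tissue. Of 9 macrophage markers tested 3 were higher and 1 lower, with a summed level of 5.14 to 5.64 in polyps, 6.06 to 6.77 in Apc normal tissue and 6.06 to 6.45 in wild-type tissue. Of 7 markers of squamous and sebaceous skin tested 2 were higher and 1 lower, with 2.88 to 3.49 in polyps, 2.62 to 2.77 in Apc normal tissue and 2.79 to 3.03 in wild-type tissue. The part of these cell types in the results was not tested, and in bulk tissue fewer cells of a type and less RNA per cell cannot be told apart.

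**Figure D2:**
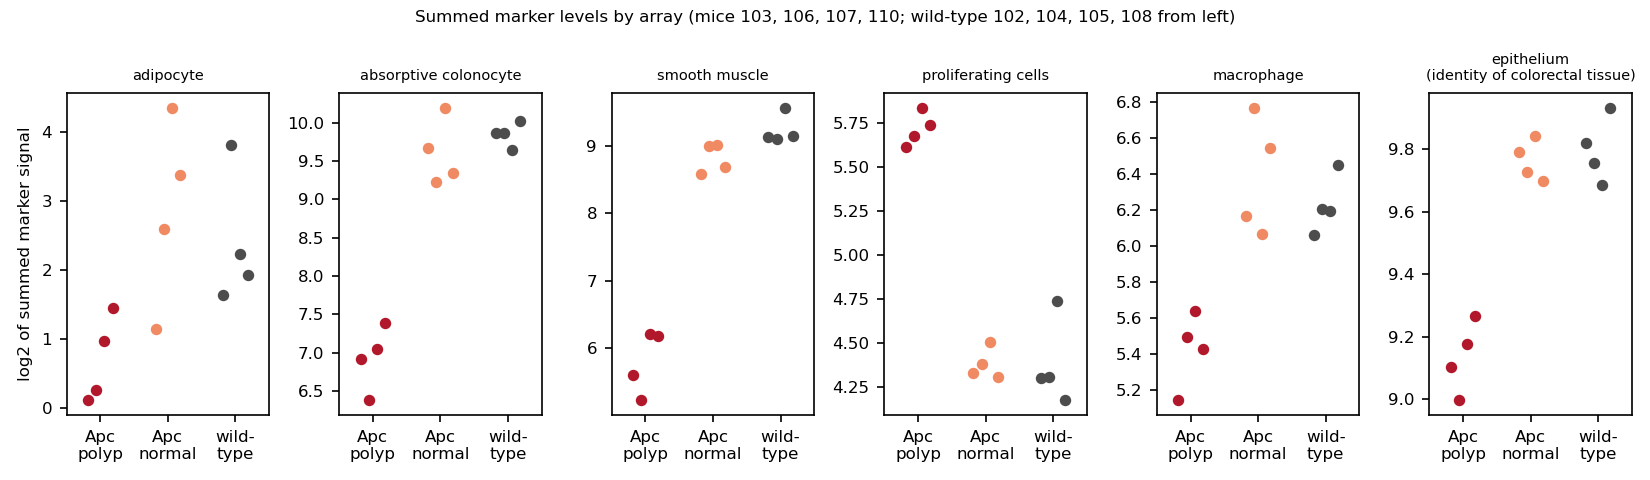
Log2 of the summed marker signal on each array, relative to the 75th percentile of that array, for 6 marker lists; within a group points run by mouse number from left to right. Polyps lie below both normal groups for absorptive colonocyte (6.38 to 7.39), smooth muscle (5.22 to 6.20), macrophage and epithelial markers. They lie above both for proliferating cells, and within or below the range of normal tissue for adipocytes (0.11 to 1.46). For macrophages this holds for the sum only: of 9 markers tested 3 were higher and 1 lower in polyps against Apc normal tissue.

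Early in the sterol pathway, Hmgcs1, the synthase that makes HMG-CoA, was lower in polyps. Levels are given on a log2 scale on which 0 is the 75th percentile of all probes of an array, and a level is not comparable between genes. Hmgcs1 stood at 3.98, 3.94, 3.85 and 4.27 in polyps of mice 103, 106, 107 and 110, against 4.69, 4.92, 4.97 and 5.10 in normal tissue of these mice and 4.57, 4.72, 3.91 and 5.19 in wild-type mice 102, 104, 105 and 108. All polyps lay below all Apc normal samples, while wild-type mouse 105 lay among the polyps. Such parting of groups, here and below, only describes the values, as its share over all genes is not given. The fall in polyps against Apc normal tissue was −0.91 ± 0.13 (SE), or 1.88-fold (limma adjusted p = 0.00107). A second Hmgcs1 probe, well above background on 7 of 12 arrays, differed by −0.23, and with the mean over both probes the call ended (−0.57, adjusted p = 0.109). Mvk, the kinase that phosphorylates mevalonate, was lower by −0.67 ± 0.22 (adjusted p = 0.0359), with overlapping groups. The next enzymes of the pathway did not pass: Pmvk at −0.10 ± 0.18, Mvd at −0.12 ± 0.17 and Idi1, the isopentenyl diphosphate isomerase, at −0.28 ± 0.18. Nor did Fdps, which makes farnesyl diphosphate (0.01 ± 0.12), or Fdft1, the squalene synthase (0.04 ± 0.19).

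After squalene the calls resumed. Sqle, the squalene epoxidase and a rate-limiting enzyme, stood at 3.03, 3.03, 2.99 and 3.19 in polyps of mice 103, 106, 107 and 110, against 3.57, 3.75, 3.86 and 3.81 in their normal tissue and 3.14, 3.48, 2.36 and 3.92 in the wild-type mice. Polyps varied least, with an SD of 0.09 (n = 4), and lay apart from Apc normal tissue (SD 0.13) but inside the wild-type range (SD 0.66). Sqle fell by 0.69 ± 0.11 against Apc normal tissue, or 1.61-fold (adjusted p = 0.00126). Lss, the lanosterol synthase, stood at −0.42, −0.15, −0.18 and 0.09 in polyps, against 0.12, 0.39, 0.75 and 1.05 in Apc normal tissue and −0.22, 0.07, −1.11 and 0.37 in wild-type tissue, and was lower in polyps by −0.75 ± 0.21 (adjusted p = 0.0219). Its highest polyp, mouse 110, lay just under its lowest Apc normal sample, mouse 103. Cyp51, the lanosterol demethylase, did not pass (−0.16 ± 0.16). Nsdhl, which takes part in removing further methyl groups, was lower by −0.33 ± 0.11 (adjusted p = 0.0467), although its second probe differed by only −0.09, and Sc5d, a sterol desaturase, by −0.49 ± 0.14 (adjusted p = 0.0243).

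The largest change of the sterol branch was at its last step. Dhcr7, the reductase that makes cholesterol from 7-dehydrocholesterol (probe at chr7:151033874-151033933, mm9), stood at 0.41, −0.15, −0.04 and 0.08 in polyps of mice 103, 106, 107 and 110, against 1.55, 0.95, 0.97 and 1.39 in their normal tissue and 1.63, 1.16, 0.83 and 1.32 in wild-type tissue. The polyps lay below all 8 normal samples, and the normal groups overlapped throughout. Dhcr7 fell by 1.14 ± 0.19 against Apc normal tissue, or 2.20-fold (adjusted p = 0.0017), and it was lower in polyp than in normal tissue of each mouse, by 1.0 to 1.31 on the log2 scale. Hmgcs1, Mvk, Sqle, Lss, Nsdhl and Sc5d, called lower on the same arrays, were likewise lower in the polyp sample of 4 of 4 mice. For Dhcr7, Hmgcs1, Sqle, Lss and Nsdhl this follows from groups that do not overlap, so it adds no support. The share of all genes lower in 4 of 4 mice is not given.

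The calls of Hmgcs1, Sqle and Dhcr7 held with each of the 8 arrays left out in turn (adjusted p = 0.00151 to 0.00689), and those of the other 4 sterol genes did not. Lss lost its call without the polyp array of mouse 103 (0.0585) or 106 (0.052) and without the Apc normal sample of mouse 107 (0.0516). Sc5d lost it without the polyp array of mouse 103 (0.0648), 106 (0.071) or 107 (0.0546) and without the Apc normal sample of mouse 106 (0.0578) or 110 (0.0569). Mvk lost it without the polyp array of mouse 106 (0.0888), 107 (0.0901) or 110 (0.068) and without the Apc normal sample of mouse 103 (0.0753), 106 (0.0744) or 110 (0.0801). The call of Nsdhl held only without the Apc normal sample of mouse 106 (0.0223), and ended without any other single array (0.0765 to 0.113). With mouse number as a block it was also lost (0.0653). Mvk, Nsdhl and Sc5d did not pass after quantile normalization (0.0883, 0.0606 and 0.101), which left 4 sterol genes lower.

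**Figure D3:**
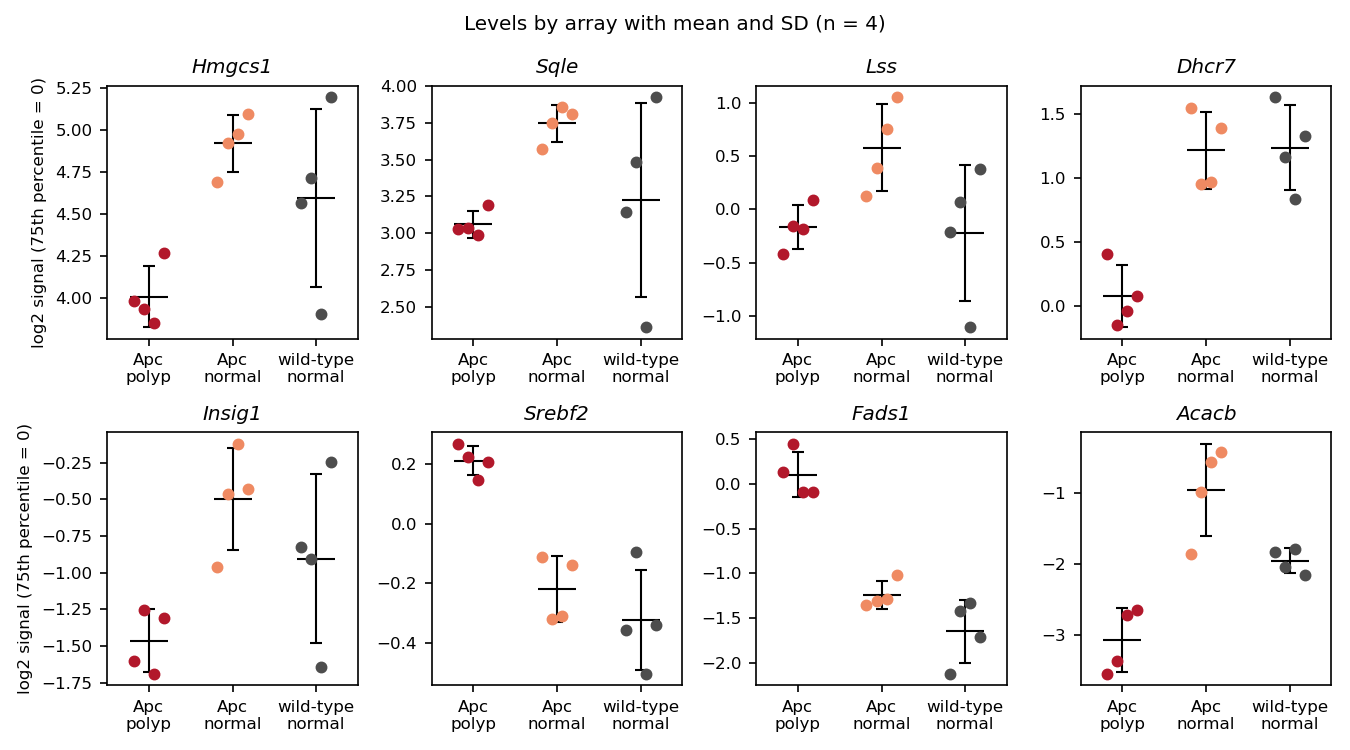
Log2 signal (75th percentile of each array at 0) of 8 genes on each array, with the mean and SD of the 4 arrays of a group, for polyps, Apc normal and wild-type normal tissue from left to right. Polyps lie wholly below Apc normal tissue for Hmgcs1, Sqle, Lss, Dhcr7, Insig1 and Acacb and wholly above it for Srebf2 and Fads1, while wild-type samples spread widely for Hmgcs1, Sqle, Lss and Insig1 (SD 0.53 to 0.66). Each vertical axis has its own range. The 8 genes were picked for display. How many of all genes tested part in this way is not given, and 45.5% of them were called in this comparison.

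Among the regulators, the Insig genes were lower and Srebf2 was higher in polyps. Insig1, itself a target of SREBPs, stood at −1.6, −1.25, −1.69 and −1.31 in polyps of mice 103, 106, 107 and 110, against −0.96, −0.47, −0.12 and −0.43 in their normal tissue and −0.82, −0.91, −1.64 and −0.24 in the wild-type mice. All polyps lay below all Apc normal samples, and wild-type mouse 105 lay among the polyps. Insig1 fell by 0.97 ± 0.19, or 1.96-fold (limma adjusted p = 0.00452). Insig2, its homologue, was lower by −0.54 ± 0.17 (adjusted p = 0.0327). Its call ended with mouse number as a block (0.0537) and without the polyp array of mouse 103 (0.0797), 106 (0.0816) or 107 (0.0682) and without the Apc normal sample of mouse 103 (0.0748) or 107 (0.0547).

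Srebf2 (probe at chr15:82034765-82034824, mm9) stood at 0.27, 0.22, 0.15 and 0.21 in polyps of mice 103, 106, 107 and 110, against −0.11, −0.32, −0.31 and −0.14 in their normal tissue and −0.36, −0.10, −0.50 and −0.34 in wild-type tissue. The polyps lay above all 8 normal samples. Srebf2 rose by 0.43 ± 0.10, or 1.35-fold (limma adjusted p = 0.00749), its second probe differed by 0.63, and the call held with each array left out (0.0106 to 0.025). Srebf1 stood at −1.56, −1.70, −2.08 and −1.96 in polyps, against −1.99, −1.88, −2.58 and −1.98 in Apc normal tissue and −2.90, −2.04, −2.63 and −2.0 in wild-type tissue. Groups overlapped for Srebf1 and the difference between polyps and Apc normal tissue, 0.29 ± 0.19, did not pass (adjusted p = 0.255), although it was above 0 in 4 of 4 mice. Scap differed by 0.03 ± 0.16. Against Apc normal tissue the mRNA of Srebf2 was higher in polyps while those of Insig1, Hmgcs1, Sqle and Dhcr7 were lower. Of these genes, only Srebf2 and Dhcr7 also passed against wild-type tissue.

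The fatty acid branch had calls in both directions. Fads1, the delta-5 desaturase of polyunsaturated fatty acids (probe at chr19:10270530-10270589, mm9), stood at 0.13, 0.44, −0.09 and −0.09 in polyps of mice 103, 106, 107 and 110, against −1.36, −1.31, −1.29 and −1.02 in their normal tissue and −2.12, −1.43, −1.33 and −1.71 in the wild-type mice. Every polyp lay above every normal sample. Fads1 rose by 1.34 ± 0.15, or 2.54-fold (limma adjusted p = 0.000323). Elovl5, which elongates the polyunsaturated products of the desaturases, rose by 0.49 ± 0.13 (adjusted p = 0.015), and both calls held with each array left out. Fads2, the delta-6 desaturase that acts before Fads1, did not pass (−0.72 ± 0.38, adjusted p = 0.158). Its Apc normal array of mouse 107 stood at 0.11, against 1.51 to 1.85 on the other 3, and without that array Fads2 was lower in polyps by −1.12 (adjusted p = 0.00256).

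The 2 acetyl-CoA carboxylases, which make malonyl-CoA, parted. Acacb, the mitochondria-associated form (probe at chr5:114700702-114700761, mm9), stood at −3.55, −3.37, −2.72 and −2.65 in polyps of mice 103, 106, 107 and 110, against −1.87, −0.99, −0.57 and −0.42 in their normal tissue and −1.83, −2.05, −1.80 and −2.15 in the wild-type mice. Polyps were lowest and wild-type samples lay close together (SD 0.17, n = 4). Apc normal samples spread more widely (SD 0.65), 3 of the 4 above all wild-type samples and mouse 103 within their range. Acacb fell by 2.11 ± 0.35, or 4.31-fold (limma adjusted p = 0.0019), the largest change of the 34 genes in this comparison. It was the 1 gene that passed under all 21 alternatives. Acaca, the cytosolic form that serves fatty acid synthesis, stood at 2.34, 2.38, 2.10 and 2.18 in polyps, against 2.25, 1.78, 1.85 and 2.34 in Apc normal tissue and 1.67, 2.17, 1.92 and 2.05 in wild-type tissue. These groups overlapped and the difference of 0.20 ± 0.16 did not pass (adjusted p = 0.339). In Apc normal tissue of mice 103, 106, 107 and 110 the summed adipocyte markers stood at 1.14, 2.60, 4.36 and 3.39, while in polyps of these mice they stood at 0.11, 0.26, 0.98 and 1.46 and in wild-type mice 102, 104, 105 and 108 at 1.64, 3.82, 2.24 and 1.93. In polyps both rose in the order of mice 103, 106, 107 and 110. In Apc normal tissue mouse 103 was lowest for both, the adipocyte level was highest in mouse 107 and Acacb in mouse 110. Wild-type mouse 104, with the highest adipocyte level of its group, was second lowest for Acacb. The part of adipocytes in the Acacb levels was not tested.

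Acly, the citrate lyase that supplies cytosolic acetyl-CoA, was lower in polyps by −0.74 ± 0.24 (limma adjusted p = 0.0366). Its Apc normal array of mouse 107 stood at 4.11, among the polyps (4.01 to 4.25), against 4.89 to 5.25 on the other 3. Without that array the difference was −0.98 (adjusted p = 0.00117), and without any other single array the call ended (0.0579 to 0.0878). Its second probe differed by −0.22. Fasn, the fatty acid synthase, stood at −0.97, −1.08, −1.57 and −1.55 in polyps of mice 103, 106, 107 and 110, against −1.64, −1.75, −1.90 and −1.53 in Apc normal tissue and −2.35, −1.61, −2.58 and −1.90 in wild-type tissue. Fasn leaned higher in polyps of 3 of 4 mice, the groups overlapped through mouse 110, and the difference of 0.42 ± 0.17 did not pass (adjusted p = 0.0811). Me1, the malic enzyme that supplies NADPH, differed by 0.91 ± 0.55 (adjusted p = 0.214), and by 1.39 with normal array 107 left out (adjusted p = 0.0354).

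The stearoyl-CoA desaturases, which make monounsaturated fatty acids, did not pass. Scd1 stood at 0.77, 1.01, 0.21 and 0.46 in polyps of mice 103, 106, 107 and 110, against 0.24, 0.32, −0.30 and 1.05 in their normal tissue and −0.89, 0.16, −0.05 and −0.17 in the wild-type mice. The difference from Apc normal tissue was 0.28 ± 0.30 (adjusted p = 0.467), with overlapping groups. Scd2 stood at 4.83, 4.75, 4.72 and 4.77 in polyps, against 5.47, 5.21, 4.72 and 5.56 in Apc normal tissue and 4.64, 5.18, 4.51 and 5.37 in wild-type tissue. Its polyp values were close to one another (SD 0.05, n = 4) and the Apc normal array of mouse 107 lay at their level. The difference was −0.47 ± 0.18 (adjusted p = 0.0689), and −0.64 without that array (adjusted p = 0.00492). Among the other elongases, Elovl1, which makes very long saturated chains, was lower by −0.49 ± 0.14 (adjusted p = 0.0258) and Elovl7 by −0.47 ± 0.15 (adjusted p = 0.0323). Elovl6, which elongates palmitate, differed by −0.30 ± 0.36 and did not pass.

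The calls of Elovl1 and Elovl7 rested on the scaling and on single arrays. After quantile normalization they stood at −0.18 (limma adjusted p = 0.307) and −0.31 (0.126). Elovl1 also lost its call without the polyp array of mouse 103 (0.0595), 106 (0.0745) or 107 (0.0529). Elovl7 lost it without the polyp array of mouse 106 (0.0851) or 107 (0.0836) and without the Apc normal sample of mouse 103 (0.073), 106 (0.0693) or 110 (0.0597). Acly did not pass after quantile normalization either (−0.44, adjusted p = 0.193), which left 1 fatty acid enzyme lower, Acacb.

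In the glycerolipid branch, Gpam, the mitochondrial acyltransferase that begins glycerolipid synthesis, was lower in polyps by −0.91 ± 0.17, or 1.88-fold (limma adjusted p = 0.00357). Polyps stood at −4.10 to −3.80, Apc normal tissue at −3.52 to −2.74 and wild-type tissue at −2.99 to −2.84, with polyps apart from both. The triglyceride-forming acyltransferases did not pass, with Dgat1 at −0.54 ± 0.20 (adjusted p = 0.0618, and 0.0251 with normal array 106 left out, where it was −0.67) and Dgat2 at −0.36 ± 0.35 (adjusted p = 0.435).

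The second comparison set normal tissue of mutant mice against normal tissue of wild-type mice, with the Apc normal arrays shared with the first. Of the 34 genes 0 passed by limma, and 0.169% of all genes did. At an unadjusted p under 0.05 there were 8 of the 34 genes and 17.1% of all genes. Sterol enzymes leaned upward: 12 of 13 were above 0 in Apc normal tissue, against 47.1% of all genes, with a median log2 fold change of 0.52 beside −0.02 for all genes. Of these, 6 had an unadjusted p under 0.05, against 8.22% of all genes for higher values. They were Pmvk (0.55 ± 0.19), Idi1 (0.68 ± 0.27), Fdps (0.82 ± 0.26), Lss (0.80 ± 0.34), Cyp51 (0.75 ± 0.30) and Nsdhl (0.66 ± 0.14), with adjusted p from 0.0987 for Nsdhl to 0.28 for Lss. Dhcr7 stood apart from the branch at −0.02 ± 0.21. The lean depended on the wild-type mice: without mouse 105 the branch median was 0.27, with 12 of 13 above 0 and 3 at an unadjusted p under 0.05, and without mouse 108 it was 0.72, with 13 and 11. Leaving out mouse 102 left 2 genes at an unadjusted p under 0.05, and leaving out the Apc normal sample of mouse 106 or 110 left 3 each.

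Fatty acid and glycerolipid genes showed no common lean in this comparison. The median of the fatty acid enzymes was 0.22 (0.14 without wild-type mouse 105), with 8 of 13 above 0. Acacb was at 0.99 ± 0.30 (limma adjusted p = 0.178) and Dgat2 at 0.96 ± 0.27 (0.161), and each passed with the Apc normal array of mouse 103 left out, Acacb at 1.29 (0.027) and Dgat2 at 1.18 (0.0476). Acly was at −0.54 ± 0.24 (adjusted p = 0.294), with all Apc normal samples (4.11 to 5.25) below all wild-type samples (5.34 to 5.45). The regulators ranged from −0.07 for Scap to 0.41 for Insig1. All wild-type arrays lay on 1 slide and all mutant arrays on the other 2, so slide and genotype cannot be told apart, here or in polyps against wild-type tissue. A fit over all 12 arrays with slide as a random block does not part them. Its estimated correlation within slides was −0.0816, and in it 814 genes in all passed. All 12 arrays in 1 fit without the block gave 226, and the fit of 8 arrays gave 34. Among the 814 were Fdps (limma adjusted p = 0.0453) and Nsdhl (0.0147). Nsdhl also passed with all 12 arrays and no block (0.0341).

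The third comparison set polyps against wild-type normal tissue, and shares arrays with both others. Of the 34 genes 16 passed, 8 higher and 8 lower, with 60.2% of all genes called, 27.4% higher and 32.8% lower. In the sterol branch Fdps (0.84 ± 0.25, limma adjusted p = 0.0195), Pmvk (0.45 ± 0.13, 0.0166) and Nsdhl (0.34 ± 0.11, 0.0323) rose, and only Dhcr7 fell (−1.16 ± 0.19, 0.000966). Hmgcs1, Sqle and Lss, which fell against Apc normal tissue, stood at −0.59 ± 0.25 (0.0741), −0.17 ± 0.30 (0.646) and 0.05 ± 0.30 (0.89) against wild-type tissue. The branch median was 0.34 (0.15 without wild-type mouse 105), beside −0.05 for all genes. Whether wild-type mouse 105 or 108 was left out decided several calls: without mouse 105 Hmgcs1 (−0.82, 0.00701) and Insig1 (−0.80, 0.0115) were lower, and without mouse 108 Mvd (0.53, 0.0392), Fdft1 (0.81, 0.0205) and Cyp51 (0.82, 0.0338) were higher. Nsdhl lost its call without wild-type mouse 102 (0.0645) or 105 (0.0572) and without the polyp sample of mouse 103 (0.0641), 106 (0.069) or 110 (0.073), and Mvk passed without wild-type mouse 102 (−0.52, 0.0451).

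Regulators and fatty acid genes in polyps against wild-type tissue gave these values. Srebf2 rose (0.53 ± 0.10, limma adjusted p = 0.00204), Insig2 fell (−0.40 ± 0.09, 0.00652) and Srebf1 did not pass (0.57 ± 0.23, 0.058). Srebf1 passed without wild-type mouse 104 (0.69, 0.042) or 108 (0.70, 0.033). Fads1 (1.75 ± 0.20, 3.36-fold, adjusted p = 0.000143), Elovl5 (0.71 ± 0.11), Fasn (0.82 ± 0.24, 0.0183) and Scd1 (0.85 ± 0.26, 0.0205) rose. Acly (−1.28 ± 0.08, 2.43-fold, 1.13e-05), Acacb (−1.11 ± 0.22), Fads2 (−0.98 ± 0.14) and Elovl7 (−0.67 ± 0.10) fell, as did Gpam (−1.02 ± 0.09) and Dgat1 (−0.46 ± 0.09). The calls of Fasn and Scd1 were lost without the polyp array of mouse 106 (0.05 and 0.0548). Single arrays also added calls: Me1 (1.15, 0.019) passed without the polyp array of mouse 103, Dgat2 (0.77, 0.0431) and Elovl6 (−0.45, 0.05) without that of mouse 106, Acaca (0.37, 0.0431) without wild-type mouse 104, and Elovl1 (−0.34, 0.0473) and Elovl6 (−0.48, 0.0259) without wild-type mouse 105. With no array left out, Acaca (0.42, 0.0224) and Dgat2 (0.80, 0.0321) also passed after quantile normalization, so their calls depended on the scaling too. Nsdhl was called lower against Apc normal tissue and higher against wild-type tissue, with polyps at 0.21 to 0.35 between Apc normal tissue at 0.42 to 0.84 and wild-type tissue at −0.31 to 0.15.

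The sterol enzymes varied together from mouse to mouse. In wild-type tissue mouse 105 was the lowest of the 4 for 11 of 13 sterol enzymes, against 26.9% of all genes, and mouse 108 the highest for 11 of 13, against 31.7% of all genes. Their median SD was 0.50 in wild-type tissue, where all genes had 0.19, while it was 0.18 in polyps and 0.30 in Apc normal tissue, where all genes had 0.20 and 0.28. In Apc+/Δ716 mice the tissue samples of mouse 110 were the highest for 9 of 13 sterol enzymes in polyps and for 9 of 13 in Apc normal tissue, against 26.1% and 22.7% of all genes. Mouse 103 was the lowest for 7 of 13 in polyps and for 7 of 13 in Apc normal tissue, against 33.4% and 24.1%. Mean levels of the branch relative to the 12-array mean of each gene ran from −0.20 to 0.05 in polyps, 0.14 to 0.57 in Apc normal tissue and −0.74 to 0.26 in wild-type tissue, so polyps lay below every Apc normal sample and within the wild-type range. The fatty acid enzymes had a median SD of 0.19 in polyps, 0.38 in Apc normal tissue and 0.21 in wild-type tissue. Mouse 110 was the highest for 9 of 13 of them in Apc normal tissue, against 22.7% of all genes. Mouse 107 was the lowest for 8 of 13 in polyps, against 21.5% of all genes. In wild-type tissue mouse 105 was the lowest for 5 and mouse 108 the highest for 6, against 26.9% and 31.7%. Their mean levels, in which members that move in opposite directions cancel, were −0.06 to −0.02 in polyps, 0.01 to 0.25 in Apc normal tissue and −0.26 to 0.06 in wild-type tissue. Arrays share depth of labelling and slide as well as mouse, and the part of each was not tested.

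**Figure D4:**
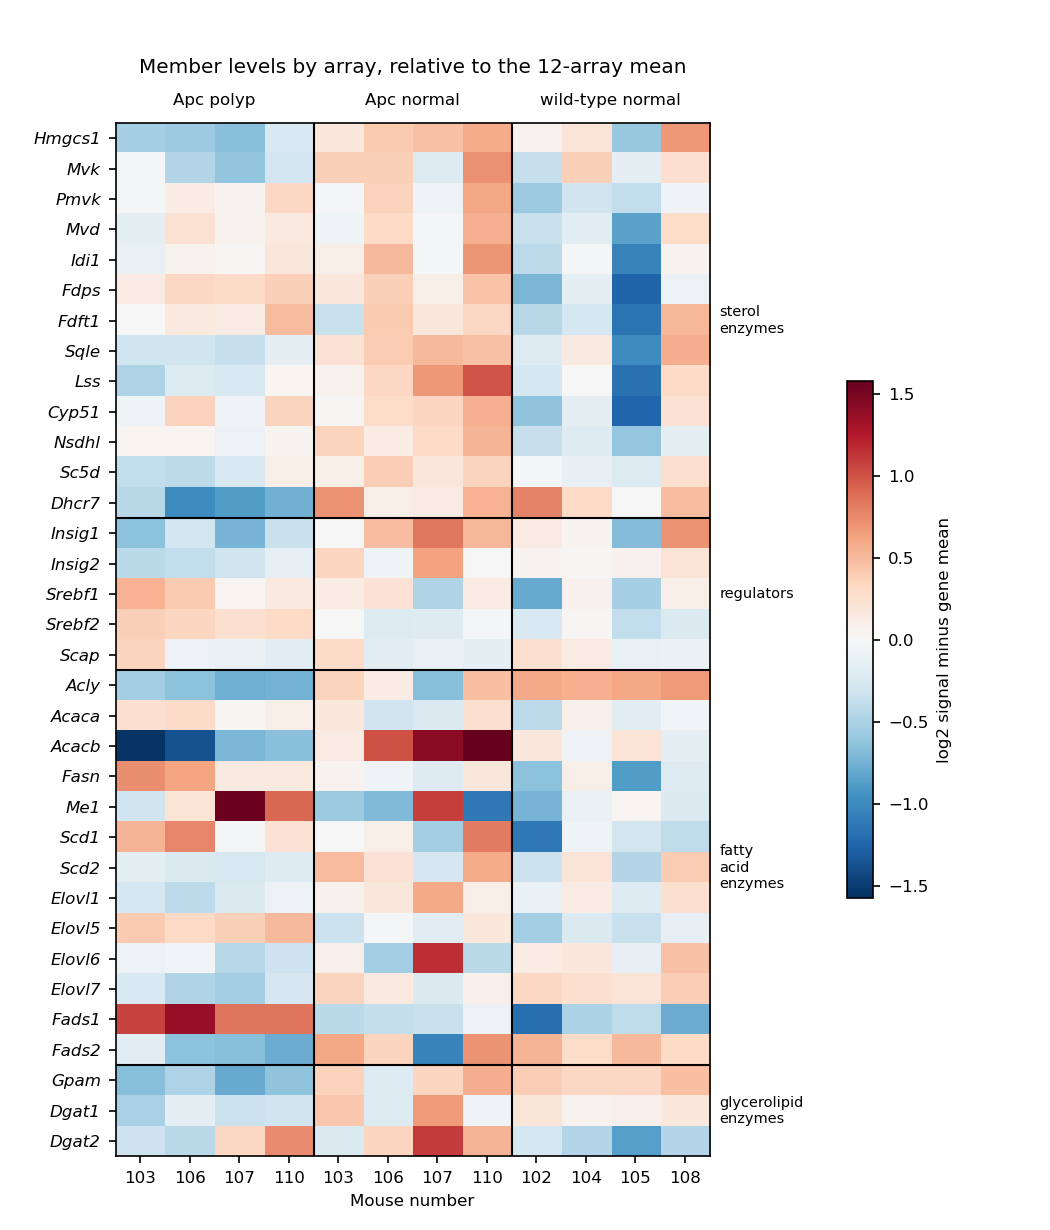
Log2 signal of each of the 34 genes on each array minus its mean over the 12 arrays (red above, blue below), with polyps, Apc normal and wild-type arrays from left to right and the 4 groups of genes from top to bottom. Wild-type mouse 105 is the lowest of its group for 11 of 13 sterol enzymes. Polyps are below Apc normal tissue in Hmgcs1, Sqle, Lss, Dhcr7 and Acacb and above it in Fads1 and Srebf2.

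Other genes of these pathways were counted by list. Over all genes tested, 20.5% were called higher and 24.9% lower in polyps against Apc normal tissue. Against wild-type tissue these shares were 27.4% and 32.8%, and the counts of all lists below stand beside them. Of 12 further sterol genes 0 rose and 6 fell in polyps against Apc normal tissue, with a median of −0.48. Stard4, a sterol carrier, fell by 1.16 ± 0.11 and Acat2, which condenses acetyl-CoA, by 1.03 ± 0.26 (limma adjusted p = 0.000168 and 0.0123). Against wild-type tissue 4 of the 12 were higher in polyps and 4 lower, among them Tm7sf2 (0.44 ± 0.12), a sterol reductase, on one side and Stard4 (−1.10 ± 0.13) and Ebp (−0.82 ± 0.09), a sterol isomerase, on the other. In Apc normal against wild-type tissue 0 genes of these lists passed by limma.

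Of 8 genes of SREBP processing and of LXR, the sterol-sensing receptor, 2 rose and 1 fell in polyps against Apc normal tissue, and 3 and 3 against wild-type tissue. The sterol exporters Abca1 (2.24 ± 0.18) and Abcg1 (1.32 ± 0.17) rose against Apc normal tissue, and also against wild-type tissue (2.66 ± 0.14 and 1.27 ± 0.16). Nr1h3, which codes for LXR alpha, fell by 1.59 ± 0.19 against Apc normal tissue and by 1.63 ± 0.11 against wild-type tissue, where Mlxipl, a carbohydrate-responsive factor, also fell (−0.85 ± 0.16). These changes were past the threshold at limma adjusted p of 0.00204 or less.

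Of 15 further fatty acid genes tested, out of 18 on the list, 3 rose and 3 fell in polyps against Apc normal tissue, and 5 and 4 against wild-type tissue. Acss2, which makes acetyl-CoA from acetate and is an SREBP target, fell by 2.29 ± 0.21 (limma adjusted p = 0.00016) against Apc normal tissue and by 2.72 ± 0.15 against wild-type tissue, and Oxsm, a mitochondrial fatty acid synthase, by 1.25 ± 0.18 and 1.28 ± 0.12. Hacd2, a dehydratase of the elongation cycle, rose by 0.92 ± 0.26 and 1.09 ± 0.25, and Acsl4, which activates arachidonic acid, by 0.85 ± 0.20 and 1.5 ± 0.18. The first of these, Hacd2, lost its call against Apc normal tissue without the polyp array of mouse 103 (0.0502) or 106 (0.0509). Of 13 genes of glycerolipid and sterol ester synthesis 1 was higher and 3 lower against Apc normal tissue, and 2 and 3 against wild-type tissue. Agpat4 fell by 2.07 ± 0.25 against Apc normal tissue and by 2.17 ± 0.21 against wild-type tissue. Agpat1 fell by 1.09 ± 0.15 and 1.0 ± 0.12 in these comparisons, and Lpin3 by 1.08 ± 0.14 and 1.05 ± 0.11. Soat2, a cholesterol acyltransferase, rose by 0.75 ± 0.21 against Apc normal tissue and by 1.01 ± 0.22 against wild-type tissue, where Mogat2, a monoacylglycerol acyltransferase, rose by 1.29 ± 0.32 (limma adjusted p = 0.00847, and 0.056 with all 12 arrays in 1 fit). Of the genes outside the 34 named here, Acat2, Nr1h3, Acsl4, Hacd2, Oxsm, Agpat1, Agpat4 and Soat2 did not pass against Apc normal tissue within at least 1 of the slides, nor did Acsl4 without both arrays of mouse 107 (0.053). Lpin3 against Apc normal tissue and Agpat1 against wild-type tissue were not followed under the alternatives.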

How the data were processed

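Tissue RNA was labelled with Cy3 and hybridised to Agilent mouse 4x44K arrays, per the labels' protocols. The values used were each spot's intensity in the deposited scanner output. Agilent Feature Extraction 10.7.3.1, named in the file headers, wrote a background-subtracted processed signal on a linear scale, with probe coordinates on mm9. A deposited series table holds a linear ratio, and the labels do not say how it was made. Per array, 99.8% to 99.9% of it equalled the processed signal over 1 constant to within 1%, with column medians near 1.00, so direction and centring match, and it served as an alternative.

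Left out were all control spots and 1403 outlier spots, and 64.6% to 73.8% of spots per array were well above background, with 0 saturated. Log2 processed signals were reduced by the 75th percentile of each array. Gene names came from RefSeq accessions for 27508 of 39429 probes, from symbols for 3544 and from synonyms for 404, and the rest kept the name in the file. The probe with the highest mean stood for a gene, and a gene was tested where that probe exceeded background on the 4 arrays of any group. The 34 genes had 51 probes; of 13 other probes measured on all arrays, 0 differed in sign by over 0.5. Each comparison was fitted on all 20082 genes from its own 8 arrays with limma 3.58.1 in R 4.3.3 (lmFit, eBayes, two-sided, Benjamini-Hochberg, threshold 0.05); the steps were tested on simulated data. The number in each title was taken as that of the mouse. Normal and polyp arrays of the same number deviated together (r = 0.455, 0.170, 0.143 and 0.282 for mice 103, 106, 107 and 110). The normal array of mouse 106 correlated more with the polyp array of mouse 110 (r = 0.193) than with its own. Both arrays of a number also shared a slide, so these values do not part mouse from slide. Results with mouse number as a block are given where they change a call.

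The 34 genes and all lists were chosen with earlier results of these data known. Values of every array are given for genes called in polyps against Apc normal tissue with a log2 change of at least 1 and groups that do not overlap, and for Srebf1, Srebf2, Insig1, Hmgcs1, Sqle, Fasn, Acaca, Scd1 and Scd2; those of Lss were added after its values were seen. For other pathway lists, up to 2 changes per direction are named, and some genes of these lists are not reported here. Alternatives covered scaling, background correction, the filter on dim probes, probes per gene, blocks for mouse and slide, single slides and each array left out.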

Additional observations from a re-analysis of the deposited data

Results flagged for a closer look

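Single arrays stood far from the other 3 of their group in 4 of 102 sets of 4 values, and chance sets apart about 1 in 20 such sets. Scap, the SREBP escort protein, was highest in both tissues of mouse 103, at 2.258 in its polyp, against 1.815 on the nearest polyp array, and at 2.208 in its Apc normal tissue, against 1.792 on the nearest array. Srebf1 stood at −2.579 in the Apc normal sample of mouse 107, against −1.993 on the nearest array. Nsdhl stood at 0.211 in the polyp of mouse 107, against 0.326 on the nearest polyp array.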

How the results depend on the processing

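No call reversed under the 21 alternatives for polyps against Apc normal tissue or the 17 for each other comparison. Of the 17 genes called in polyps against Apc normal tissue, 11 passed after quantile normalization, 11 after normexp correction, 10 with no filter on dim probes, and 2 within each slide, and 9 to 14 remained when single arrays were left out. Calls in all, newly called genes included, then numbered 9 to 17. For sterol enzymes, 7 lower became 4 under those scalings, 4 with no filter, 4 without both arrays of mouse 107 (an alternative chosen after seeing the data), 0 within each slide and 3 to 5 when single arrays were left out. The 2 fatty acid enzymes called higher became 1 on the slide of mice 103 and 106, 0 on that of mice 107 and 110, and 2 to 3 without single arrays. The 4 called lower became 2 with the median of each array or the value table, 1 with quantile, normexp, no filter or either slide, and 1 to 6 without single arrays. With the replicate block 15 genes passed, and it ended the calls of Nsdhl and Insig2 and changed no other. In Apc normal against wild-type tissue, all 12 arrays in 1 fit gave 1 gene, a sterol enzyme called higher, a random block for slide (correlation −0.0816) gave 2, both sterol enzymes, and leaving out arrays 0 to 2 genes, with 0 to 1 fatty acid enzymes called higher. In polyps against wild-type tissue the 1 sterol enzyme called lower became 2 in both of those fits and 1 to 2 without single arrays, the 3 called higher 2 to 6, fatty acid enzymes 2 to 5 higher and 4 to 6 lower, and all calls 15 to 20. Over all genes, 9129 calls in polyps against Apc normal tissue became 3466 and 1902 within slides, and 34 in Apc normal against wild-type tissue became 226 with all 12 arrays, 814 with the random block, 3 after normexp correction, 2 with no filter, and 2 to 530 without single arrays. The causes were not tested. Each slide is also a scan. All 34 genes were well above background on every array, and whether signal level limited the calls was not tested.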
